A study of Mus musculus with 24 samples.

Results

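Expression of 10 Wnt feedback and direct target genes was examined in 24 poly(A) RNA-seq libraries of male mouse embryonic stem cells (mESCs) undergoing differentiation to neuromesodermal progenitors (NMPs), the cells that give rise to spinal cord and trunk mesoderm. The genes were Axin2, Nkd1, Nkd2, Dkk1, Dkk4, Notum, Rnf43, Znrf3, Lgr5 and Tnfrsf19, a list given by name, with no threshold on their values but with earlier results of these data known, out of 35591 genes in the count table. The 6 lines came from blastocysts of a Castaneus Smchd1 +/+ mother and a C57BL/6-background Smchd1 del/fl father carrying the MMTV-Cre transgene. The 3 wt lines were Smchd1[fl/+], with one unrecombined floxed allele, and the 3 het lines carried one deleted Smchd1 allele from the father (Smchd1[del/+]). Each line was sampled on day 0, day 2, day 2.5 and day 3, giving 8 groups of 3 libraries. The cells had been derived in medium with LIF and the inhibitors PD0325901 and CHIR99021 and were moved stepwise to serum with LIF before day 0. From day 0 all lines received basic FGF in serum-free N2B27, and from day 2 all also received CHIR99021, an inhibitor of the kinase GSK3 that activates Wnt signalling. The day 2.5 and day 3 samples therefore both follow Wnt activation, and no sample was cultured to these days without it, so that CHIR99021 and time in culture cannot be told apart.

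In the canonical Wnt pathway, a Wnt ligand bound to Frizzled and Lrp receptors halts the destruction of beta-catenin, which then acts with Tcf/Lef factors on target genes. Many of these targets encode inhibitors of the pathway itself, forming negative feedback loops. Inhibition of GSK3 stabilises beta-catenin inside the cell, below the step at which the extracellular inhibitors Dkk1, Dkk4 and Notum act. In the embryo this signalling patterns the primitive streak and tailbud, where NMPs reside.

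Sequencing depth was between 7.10 and 20.8 M (mega) counts, the median being 17.9 M, and wt day 2.5 line 2 was the shallowest. Levels are counts per M counts of a library (CPM) with TMM scaling, a correction for library composition, and 3 counts, taken as the smallest measurable level, correspond to 0.144 to 0.422 CPM before this scaling. A gene was called, and is said to have risen or fallen, at a Benjamini-Hochberg adjusted p under 0.05 over all genes tested with the edgeR quasi-likelihood test. Smchd1 was lower in all 3 het lines than in all 3 wt lines on each day, for instance 115 to 124 CPM against 187 to 217 on day 2. The summed level of 6 pluripotency factors listed here as naive (Zfp42, Esrrb, Klf4, Tfcp2l1, Nanog and Pou5f1) was 2302 to 2540 CPM on day 0 and 271 to 536 on day 3. The list of 6 neuromesodermal genes, among them T (brachyury), summed to 48.3 to 91.4 CPM on day 2 and 487 to 948 on day 2.5. Of these, 5 rose and 1 fell in each genotype at that step. T, Wnt3a and Fgf8 passed the filter on low counts there only through 1 day or a mix of libraries.

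From day 0 to day 2 the CHIR99021 of the derivation medium was no longer given and had not yet been added again. At this step the intracellular antagonists Nkd1 and Nkd2 and the receptor ligase Rnf43 rose in both genotypes. The secreted inhibitors Dkk1 and Notum fell in both. In wt cells 3 of the 8 genes tested rose and 2 fell, beside 22.4% and 21.9% of all genes tested. In het cells again 3 of 8 rose and 2 of 8 fell, beside 28.0% and 28.1% of all genes, so the counts themselves were not far from those of genes at large. Rnf43 passed the filter on low counts only through day 2 and Notum only through day 0, and in het Dkk1 did so only through day 0, so these had to differ. Among the genes that passed otherwise, 3 of 6 were called in wt and 2 of 5 in het. Dkk4 and Lgr5 had too few counts to be tested at this step.

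Markers of other cell states moved at the same time. The naive pluripotency sum went to 827 to 1075 CPM on day 2 and all 6 of its genes fell in both genotypes, at a median log2 fold change of -2.84 in wt and -2.79 in het. The summed level of 14 endoderm genes (Sox17, Gata4, Gata6, Foxa2, Col4a1 and others) went from 1278 to 2269 CPM on day 0 to 4351 to 8874 CPM on day 2 in wt and from 628 to 1002 CPM to 2557 to 3623 CPM in het. Of the 11 tested, 8 rose in each genotype and none fell, while Afp and Ttr had 0 counts in wt on day 0, Ttr in het on day 0 and Afp in het on day 2. Both neural genes tested rose, their sum going from 3.18 to 7.57 CPM to 17.1 to 28.5 CPM in wt and from 6.03 to 7.86 CPM to 25.6 to 28.9 CPM in het. The neuromesodermal sum went from 213 to 283 CPM to 48.3 to 91.4 CPM in wt and from 228 to 256 CPM to 68.6 to 73.5 CPM in het, with 2 of 4 tested genes falling in each. At day 2.5 the 4 epiblast and the 2 neural genes fell in both genotypes, and 8 of 11 endoderm genes rose in het and 0 in wt. The change over this step was called different between genotypes for 0 of 12 endoderm genes tested. The endoderm sum at day 2.5 was 3282 to 8697 CPM in wt and 3453 to 5070 CPM in het. The part of these cell states in the values of the 10 genes was not tested.

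Nkd1 encodes a Dishevelled-binding protein that restrains Wnt signalling. It stood at 0.813, 1.30 and 0.938 CPM in wt lines 1, 2 and 3 on day 0 and at 5.87, 5.17 and 4.72 CPM on day 2. In the het lines the values were 1.62, 0.890 and 1.23 CPM on day 0 and 6.24, 5.96 and 8.55 CPM on day 2. All day 2 libraries were above all day 0 libraries, with log2 fold changes of 2.36 ± 0.44 in wt and 2.46 ± 0.35 in het (SE; adjusted p = 0.000557 and 2.46e-05). Its paralogue Nkd2 rose from 2.13 ± 0.63 to 8.43 ± 2.34 CPM in wt lines and from 2.80 ± 0.46 to 8.31 ± 1.38 CPM in het lines (mean ± SD, n = 3; adjusted p = 0.000518 and 0.000159).

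Rnf43 encodes a transmembrane E3 ubiquitin ligase that removes Frizzled receptors from the cell surface. Its raw counts on day 0 were only 6, 6 and 4 in wt and 6, 1 and 3 in het. By day 2 the counts were 80, 31 and 64 in wt and 53, 68 and 70 in het. The day 0 and day 2 libraries did not overlap, and the log2 fold changes were 3.08 ± 0.67 and 4.24 ± 0.60 (SE; adjusted p = 0.00193 and 2.10e-05). Without het line 1 the het value was 4.98. Because the starting counts are so low, the size of this rise is known far less well than its direction. Znrf3, the paralogue with the same activity, was already at 19.5 ± 4.3 CPM in wt and 21.0 ± 1.1 CPM in het on day 0 and was not called on day 2, at 20.7 ± 3.8 and 17.0 ± 2.5 CPM (SD, n = 3).

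Notum encodes a secreted carboxylesterase that removes the palmitoleate from Wnt ligands. On day 0 it was at 7.69, 8.55 and 8.37 CPM in the wt lines and 9.60, 7.44 and 7.02 CPM in the het lines. On day 2 it was at 0.888, 0.479 and 0.696 CPM in wt and at 0.360, 0 and 0.0652 CPM in het, the latter from 6, 0 and 1 counts. Each line lost most of its Notum RNA, with log2 fold changes of -3.55 ± 0.40 in wt and -5.72 ± 0.58 in het (SE; adjusted p = 8.68e-06 and 6.28e-07). Without het line 1, which held 6 of the 7 het reads of day 2, the het value was -7.53. Part of the Notum exons is covered on the opposite strand by Notumos and Myadml2os, and 71.4% of 75-base stretches of its longest transcript occurred in no other gene. The labels do not say for each library whether strand was kept. Counts of both antisense genes moved with Notum, lying between 2 and 21 per library on day 0 and at 0 in all het libraries on day 2, so that reads of Notum and of these genes may not be separable.

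Dkk1, a secreted antagonist that binds the co-receptors Lrp5 and Lrp6, was at 2.57, 3.54 and 6.79 CPM in wt and 1.84, 2.99 and 2.86 CPM in het on day 0. On day 2 it was at 0.691, 1.01 and 1.24 CPM in wt and 0.180, 0.536 and 0.0652 CPM in het. All libraries of day 2 were below all of day 0 in both genotypes (log2 fold change -2.11 ± 0.54 in wt and -3.23 ± 0.71 in het, SE; adjusted p = 0.00542 and 0.00117). Without het line 2 the het value was -4.16. The wt call was lost without wt line 3 (adjusted p = 0.108). The feedback scaffold Axin2, at 8.49 ± 2.12 CPM in wt and 8.21 ± 0.93 CPM in het on day 0, was at 6.84 ± 1.65 and 7.84 ± 1.24 CPM on day 2 and was not called (SD, n = 3; adjusted p = 0.433 and 0.842). Tnfrsf19 was likewise not called, at 7.86 ± 2.83 and 11.9 ± 4.3 CPM in wt and 11.5 ± 1.1 and 11.8 ± 1.6 CPM in het.

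**Figure D1:**
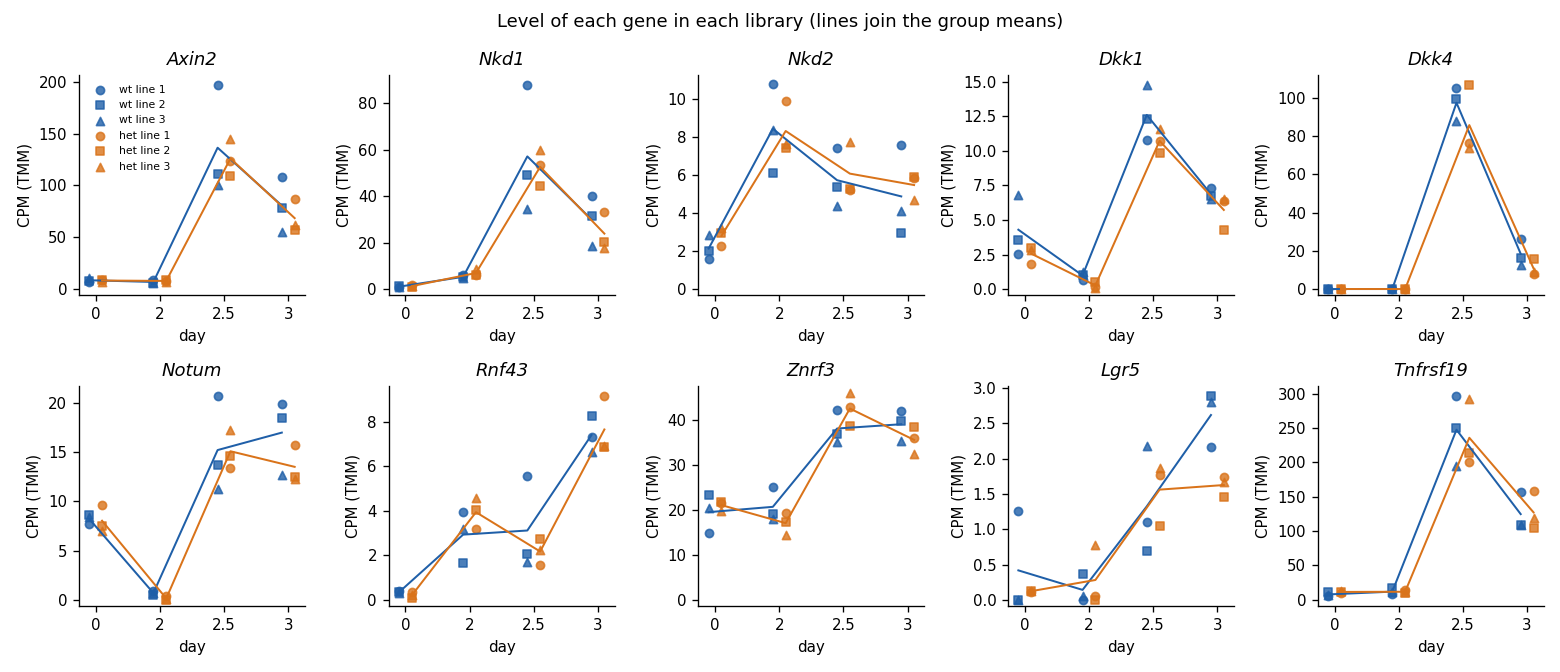
TMM-scaled CPM (y axes, linear, one scale per gene) of each gene by day (x axis) in each library, with wt lines in blue, het lines in orange, a symbol shape for each line number and lines joining the group means (n = 3). Dkk4, Axin2, Tnfrsf19 and Nkd1 peak at day 2.5, Dkk1 and Notum dip at day 2, and Rnf43 is highest on day 3. The Lgr5 mean is highest on day 3 in wt and nearly level from day 2.5 (1.56 CPM) to day 3 (1.625 CPM) in het.

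Between day 2 and day 2.5, once CHIR99021 was added again, 8 of the 10 genes rose in wt and the same 8 in het. Nkd2 and Rnf43 were not called in either genotype. Beside this, 14.6% of all genes tested rose in wt and 21.8% in het, and 14.5% and 22.9% fell. The median log2 fold change over the 10 genes was 3.56 in wt and 3.45 in het, against 0.0011 and 0.0099 over all genes tested, a value that the scaling holds near 0. In wt, Dkk4, Lgr5 and Notum entered the test only through their day 2.5 libraries, and in het Dkk1 did so as well, so these had to differ. Among the remaining genes, 5 of 7 rose in wt and 4 of 6 in het, with median log2 fold changes of 3.44 and 2.1.

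Dkk4 showed the widest range of the set. This secreted relative of Dkk1 had 0 or 1 counts in every library of day 0 and day 2. At day 2.5 it had 1910, 718 and 1496 counts in the wt lines, or 105, 99.1 and 88.1 CPM, and 1559, 2045 and 1464 counts in the het lines, or 76.6, 107 and 73.9 CPM. Every line thus went from at most a single read to at least 718. In het, where all day 2 libraries were at 0, the rise was at least 464-fold against a floor of 3 counts per library. In wt, where day 2 held 1 count in all, the ratio was 5750 with a 95% exact counting interval of 1030 to 227000, which covers counting error only. Since that single count lies under the floor used for het, the values of the genotypes cannot be set against each other (adjusted p = 1.93e-10 in wt and 6.16e-10 in het).

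Axin2 encodes a scaffold of the beta-catenin destruction complex and is widely used as a readout of canonical Wnt activity. It reached 197, 111 and 101 CPM in wt lines 1, 2 and 3 and 124, 109 and 145 CPM in het lines 1, 2 and 3, from at most 9.18 CPM in any day 2 library. These are 19.9-fold and 16.1-fold rises of the mean, with log2 fold changes of 4.31 ± 0.27 and 3.98 ± 0.14 (SE; adjusted p = 2.36e-07 and 1.39e-10). Reads from Gm11670, which overlaps an Axin2 exon on the other strand, amounted to at most 250 counts in any library at day 2.5, against 807 to 3586 for Axin2.

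Tnfrsf19, also called Troy, encodes a TNF-family receptor that marks Wnt-responsive stem cells in several epithelia. At day 2.5 it was at 297, 250.3 and 195 CPM in wt and 201, 214 and 293 CPM in het. No library of day 2 exceeded 16.6 CPM. The mean rose 20.7-fold in wt and 20.1-fold in het (log2 fold change 4.37 ± 0.24 and 4.30 ± 0.15, SE; adjusted p = 1.07e-07 and 1.39e-10).

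Nkd1, which had already risen by day 2, rose again, to 88.0, 49.0 and 34.5 CPM in wt and 53.6, 44.6 and 59.9 CPM in het. The wt libraries spread widely, with line 1 far above the other two. The log2 fold changes were 3.44 ± 0.30 and 2.91 ± 0.16 (SE; adjusted p = 6.27e-06 and 1.48e-08). Nkd2, in contrast, was at 5.72 ± 1.56 CPM in wt and 6.07 ± 1.44 CPM in het lines (SD, n = 3), with log2 fold changes of -0.56 ± 0.31 and -0.48 ± 0.25 (SE) that were not called (adjusted p = 0.199 and 0.13).

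The ligases Rnf43 and Znrf3 also parted at this step. Znrf3 rose to 42.2, 36.7 and 35.2 CPM in wt and 42.8, 38.6 and 46.0 CPM in het, 1.84-fold and 2.49-fold above day 2 (adjusted p = 0.0027 and 5.69e-06). Its day 2.5 libraries all lay above its day 2 libraries, although the rise was the smallest of the 8. Rnf43 stood at 5.55, 2.07 and 1.71 CPM in wt and 1.57, 2.71 and 2.22 CPM in het, and was not called. The log2 fold change of Rnf43 was 0.11 ± 0.51 in wt, where the estimate turned to -0.03 with the line as a block and to -0.37 without wt line 1, and -0.88 ± 0.37 in het (SE; adjusted p = 0.895 and 0.0721). With only genes of a mean of 50 counts or more tested, the het value passed (adjusted p = 0.042).

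The secreted inhibitors that had fallen by day 2 were all present again at day 2.5. Dkk1 reached 10.8, 12.3 and 14.8 CPM in wt and 10.7, 9.86 and 11.6 CPM in het. Notum reached 20.7, 13.7 and 11.2 CPM in wt and 13.4, 14.6 and 17.2 CPM in het. For both genes every day 2.5 library exceeded every library of day 0 as well as of day 2. The log2 fold changes from day 2 were 3.67 ± 0.33 and 5.28 ± 0.44 for Dkk1 and 4.44 ± 0.37 and 6.63 ± 0.48 for Notum in wt and het respectively (SE; adjusted p between 1.47e-07 and 9.61e-06). The het values rest on few day 2 reads, and were 6.38 for Dkk1 without het line 2 and 8.70 for Notum without het line 1.

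Lgr5, a receptor for R-spondins that neutralises the action of Rnf43 and Znrf3, was scarce throughout. It had 0, 7 and 1 counts in wt and 1, 0 and 12 in het on day 2, then 20, 5 and 37 in wt and 36, 20 and 37 in het on day 2.5. On day 0, wt line 1 had 20 counts while each of the other 5 libraries had at most 2. The rise at day 2.5 was called at adjusted p = 0.0298 in wt and 0.0472 in het (log2 fold change 3.23 ± 1.02 and 2.46 ± 0.95, SE). The call rests on few reads, and the size was 5.70 in wt without line 2, 2.25 in wt without line 3 and 5.26 in het without line 3. It was lost in wt without line 1 or line 3 (adjusted p = 0.064 and 0.295), in het without line 1 or line 2 (0.263 and 0.125), and in het in a single fit of all libraries (0.0666).

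**Figure D2:**
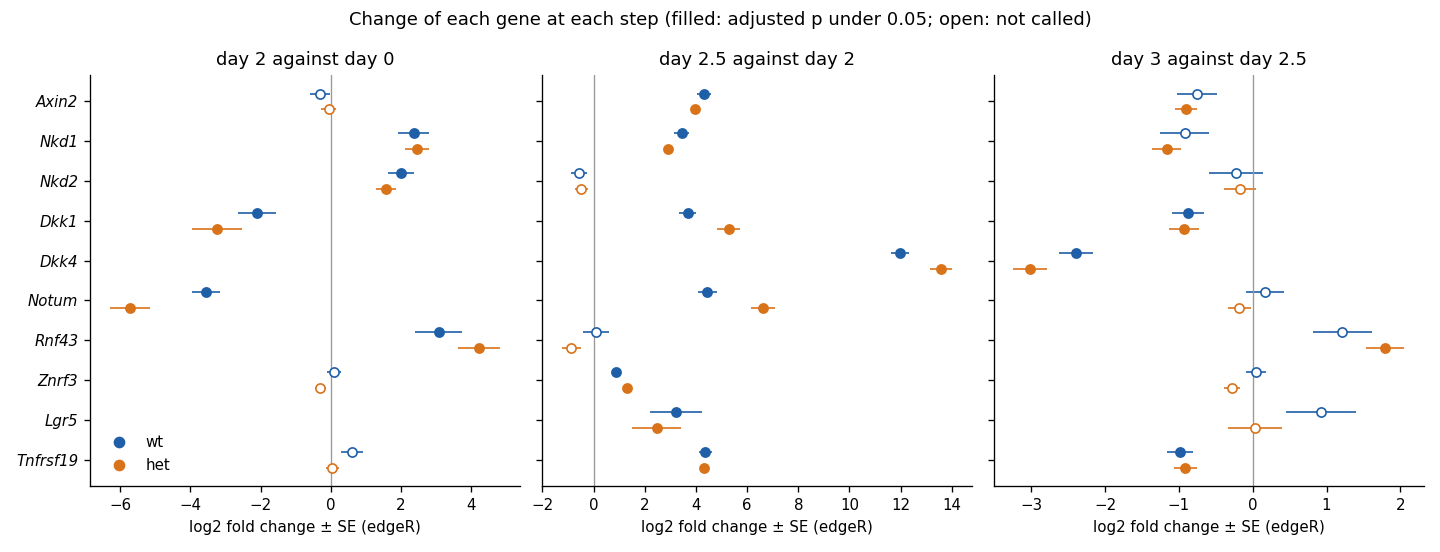
Fitted log2 fold change ± SE (x axes) of each gene at each of the 3 steps, wt in blue and het in orange, filled where called and open where not, with no symbol where counts were too low to test. At day 2.5 all genes except Nkd2 and Rnf43 lie to the right of 0 in both genotypes, and the fitted Dkk4 values, computed from 1 and 0 reads at day 2, are no measure of size.

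By day 3, 12 hours of culture later according to the labelled days, the responses had separated. Dkk4, Dkk1 and Tnfrsf19 fell in both genotypes, Axin2 and Nkd1 fell in het, Rnf43 rose in het, and Notum, Znrf3, Nkd2 and Lgr5 were not called. The counts were 3 lower and 0 higher of 10 in wt and 5 lower and 1 higher of 10 in het, beside 10.1% lower and 8.99% higher of all genes tested in wt and 16.0% lower and 13.8% higher in het. The wt count depended on the fit. With the line as a block, which removes the lasting differences between lines, 6 of the 10 genes were called in wt. Without wt line 1 it was also 6, and without wt line 2 it was 0. At this step both paraxial mesoderm genes, Tbx6 and Msgn1, rose in both genotypes, their sum going from at most 1.32 CPM to 4.24 to 21.9 CPM, but both passed the filter on low counts only through day 3 and so had to lie higher there. The naive pluripotency sum went from 656 to 1013 CPM to 271 to 405 CPM in wt, with 1 of 6 genes rising and 2 falling, and from 756 to 801 CPM to 383 to 536 CPM in het, with 1 rising and 1 falling. Of the 6 neuromesodermal genes 2 rose in each genotype and 1 fell in wt. Of the 4 epiblast genes 2 fell in wt, and 1 fell and 1 rose in het, while of the endoderm genes 0 of 12 were called in wt and 2 of 11 fell in het, where 1 of the 2 neural genes also rose. The part of these cells in the values was not tested.

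The steepest decline was that of Dkk4, which went to 26.4, 16.4 and 12.6 CPM in wt and 7.88, 15.6 and 8.96 CPM in het. All libraries were well below those of day 2.5 and well above the at most single reads of day 2. The remaining mean was 18.9% of the day 2.5 mean in wt and 12.6% in het (log2 fold change -2.39 ± 0.23 and -3.01 ± 0.23, SE; adjusted p = 0.00032 and 3.47e-05). Without wt line 2 the wt call was lost (adjusted p = 0.0603). Dkk1 declined to 7.35, 6.74 and 6.52 CPM in wt and 6.40, 4.24 and 6.55 CPM in het, or 54.5% and 53.4% of day 2.5 (adjusted p = 0.0189 and 0.00512), and in wt this call was lost without line 2 or line 3 (adjusted p = 0.148 and 0.174).

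Tnfrsf19 fell to 157, 108 and 109 CPM in wt and 159, 104 and 118 CPM in het. These were still far above day 2 and were 50.4% and 54.0% of the day 2.5 means (adjusted p = 0.00478 and 0.00168). The wt call was lost without line 2 (adjusted p = 0.114). Axin2 stood at 109, 78.6 and 54.6 CPM in wt and 86.5, 56.8 and 62.1 CPM in het, lower than on day 2.5 in each of the 6 lines. Its log2 fold change was -0.75 ± 0.27 in wt, not called (adjusted p = 0.0735, and 8.64e-05 with the line as a block), and -0.90 ± 0.15 in het (SE; adjusted p = 0.0011).

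For Nkd1 the levels were 39.9, 31.5 and 18.5 CPM in wt and 33.4, 20.5 and 17.8 CPM in het, again lower in each of the 6 lines than on day 2.5. The wt libraries of the 2 days overlapped and the het libraries did not. The log2 fold change was -0.92 ± 0.33 in wt, not called (adjusted p = 0.0727, and 0.000123 with the block), and -1.16 ± 0.20 in het (SE; adjusted p = 0.00145). Rnf43 moved the other way. It stood at 7.30, 8.24 and 6.64 CPM in wt and 9.16, 6.88 and 6.89 CPM in het, above every earlier library of either genotype. The log2 fold change was 1.22 ± 0.40 in wt, not called (adjusted p = 0.0579, and 0.00624 with the block, and 2.0 with adjusted p = 0.00204 without wt line 1), and 1.79 ± 0.26 in het (SE; adjusted p = 0.000589).

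Notum was at 17.0 ± 3.8 CPM in wt and 13.5 ± 1.9 CPM in het lines on day 3 (SD, n = 3), and Znrf3 at 35.3 to 41.9 CPM in wt and 32.3 to 38.3 CPM in het, none of them called against day 2.5. Lgr5 had 47, 48 and 46 counts in wt and 34, 31 and 34 in het, and Nkd2 was at 4.87 ± 2.41 and 5.47 ± 0.68 CPM. Between genes, levels can be compared only per kilobase of merged exon. On that scale Dkk4 came first on day 2.5, at 74.1 ± 6.5 CPM per kb in wt and 65.2 ± 13.8 in het, followed by Tnfrsf19 at 52.2 ± 10.8 and 49.7 ± 10.5, Axin2 at 24.8 ± 9.6 and 22.9 ± 3.3, and Nkd1 at 12.5 ± 6.1 and 11.6 ± 1.7 (SD, n = 3). The libraries of Dkk4 and Tnfrsf19 overlapped in het but not in wt. On day 0 the order had been led by Notum, at 3.41 ± 0.19 and 3.33 ± 0.58 CPM per kb, and by day 3 Tnfrsf19 led, with Axin2 and Dkk4 next and overlapping each other. Lgr5 was last on day 2.5 and on day 3 in both genotypes.

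All 10 genes are protein coding, and the count table placed each at the coordinates of the GENCODE vM21 annotation of GRCm38. Chromosome 11 carries Znrf3 (chr11:5276324-5444847, minus strand), Rnf43 (chr11:87662722-87735539, plus), Axin2 (chr11:108920349-108950783, plus) and Notum (chr11:120653788-120661175, minus). Chromosome 8 carries Dkk4 (chr8:22624043-22627547, plus) and Nkd1 (chr8:88521354-88594884, plus). Lgr5 is at chr10:115450311-115587780, Nkd2 at chr13:73818534-73847631, Tnfrsf19 at chr14:60963875-61046490 and Dkk1 at chr19:30545863-30549665, all on the minus strand. Promoter windows of 300 bases around RefSeq starts (GRCm38.p6, 250 bases before to 50 after) were held for 6 of the 10 genes, Axin2, Nkd1, Nkd2, Dkk1, Rnf43 and Tnfrsf19. They were searched on both strands for the Tcf/Lef core CTTTGAA or CTTTGAT, which 8.651% of 32851 such windows hold. With bases counted back from -1 just before the start, it occurred in the window of Dkk1, on the gene's strand from base -117, and in 1 of the 2 windows of Tnfrsf19, on the opposite strand from base -202, and in none of the others. The longer CTTTGAAG or CTTTGATG, held by 2.718% of windows, occurred in none of them. The sequences below are written 5′ to 3′ on the gene's strand with the core in capitals. They show both sites, and the stretch before the start of Axin2 as an example of a window with no match. The Dkk1 stretch is chr19:30549596-30549625 on the minus strand, inside the first exon of the GENCODE model, which begins farther out than the RefSeq start. The Tnfrsf19 stretch, chr14:61037988-61038237 on the minus strand, precedes the inner of 2 RefSeq starts and lies in an intron of the longer transcripts. The Axin2 stretch is chr11:108920099-108920348 on the plus strand, outside the annotated exons. A match or its absence is a description of these letters only.
Dkk1 site: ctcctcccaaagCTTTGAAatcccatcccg
Tnfrsf19 inner start: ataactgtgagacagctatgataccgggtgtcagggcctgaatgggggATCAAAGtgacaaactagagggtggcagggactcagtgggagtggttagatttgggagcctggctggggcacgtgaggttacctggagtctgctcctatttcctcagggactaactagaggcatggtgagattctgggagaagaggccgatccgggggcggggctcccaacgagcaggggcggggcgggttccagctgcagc
Axin2 start: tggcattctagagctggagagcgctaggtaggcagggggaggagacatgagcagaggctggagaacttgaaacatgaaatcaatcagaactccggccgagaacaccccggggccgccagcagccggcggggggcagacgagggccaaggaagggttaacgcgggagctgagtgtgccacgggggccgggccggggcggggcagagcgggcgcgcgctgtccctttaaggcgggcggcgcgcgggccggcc

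The het and wt lines were compared on each day to ask whether a single working copy of Smchd1 alters expression. None of the genes was called between genotypes on any day by edgeR, with 7 tested on day 0 and on day 2 and 10 on day 2.5 and on day 3. Over all genes tested, 0.0%, 0.551%, 0.0% and 0.00638% were called on the 4 days. At an unadjusted p under 0.05 there was 1 gene on day 0 (Tnfrsf19), 0 on day 2, 0 on day 2.5 and 1 on day 3 (Dkk4), beside 10.9%, 10.2%, 5.27% and 9.13% of all genes tested. The DESeq2 Wald test also called 0 on each day. With no filter on low counts, Dkk4 on day 3 passed at adjusted p = 0.0497. Smchd1 itself was called by edgeR on day 2 and day 3 (adjusted p = 0.00824 and 0.0307). It was not called on day 0 and day 2.5 (adjusted p = 0.1004 and 0.9075), at log2 differences of -0.61 and -0.60 without overlap. Not being called on those days is therefore no sign that a gene is unaltered.

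The mean of Dkk1 lay lower in het on all 4 days. On day 2 the 3 het libraries had 3, 9 and 1 counts and the wt libraries 14, 19 and 25, without overlap. The log2 difference of het from wt was -0.75 ± 0.40 on day 0, -1.88 ± 0.94 on day 2, -0.23 ± 0.19 on day 2.5 and -0.27 ± 0.23 on day 3 (SE; adjusted p = 0.505, 0.521, 0.922 and 0.765). The day 0 value was -0.28 without wt line 3, and the day 2 value -2.93 without het line 2. On day 2 the groups did not overlap for 2 of the 7 genes tested, Dkk1 and Nkd1, beside 16.0% of all genes tested. Dkk1 passed the filter there only through the wt libraries, in which it was higher, so it had to differ. Nkd1 was higher in het there, by 0.39 ± 0.29 on the log2 scale (SE; adjusted p = 0.714). Endoderm markers moved with these values. Their summed level on day 2 was given above, with all 3 het libraries below all 3 wt libraries, 9 of the 11 tested were called lower in het, and Afp had 0 counts in the het libraries. Notum on day 2 had 18, 9 and 14 counts in wt and 6, 0 and 1 in het, too few for the test. On each of the 4 days all of the 11 endoderm genes then tested had a lower estimate in het, with medians of -0.883, -1.06, -0.473 and -0.75 on the log2 scale, of which 0 were called on day 0, day 2.5 and day 3. The part of endoderm cells in the Dkk1 and Notum values was not tested, and in bulk RNA fewer cells and less RNA per cell cannot be told apart.

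On day 3, Dkk4 was at 18.4 ± 7.1 CPM in wt and 10.8 ± 4.2 CPM in het lines (SD, n = 3), with het line 2 within the wt range. The log2 difference was -0.78 ± 0.30 (SE; adjusted p = 0.488), and -0.43 without wt line 1. At its peak on day 2.5 the difference was -0.18 ± 0.15 (SE; adjusted p = 0.922). Lgr5 on day 3 was the only gene without overlap, at 2.16 to 2.89 CPM in wt and 1.46 to 1.74 CPM in het (log2 difference -0.69 ± 0.33, SE; adjusted p = 0.57), where 13.9% of all genes tested did not overlap. On day 0 and on day 2.5 the groups overlapped for each gene tested, beside 16.7% and 11.4% of all genes that did not. Tnfrsf19 on day 0 was at 5.32, 10.9 and 7.36 CPM in wt and between 10.3 and 12.2 CPM in the het lines (log2 difference 0.53 ± 0.24, SE; adjusted p = 0.452), and the difference was 0.32 without wt line 1 and 0.84 without wt line 2.

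**Figure D3:**
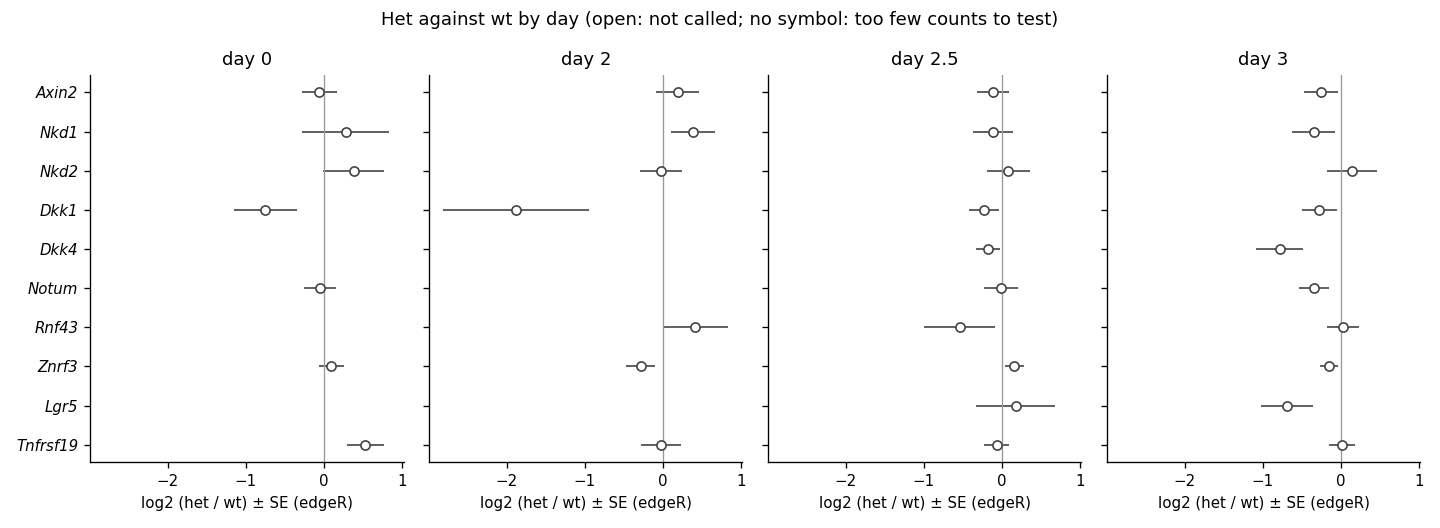
Log2 difference of het from wt ± SE (x axes, one scale) for each gene (y axis) on each day. All symbols are open because no gene was called, and the widest error is that of Dkk1 on day 2, which rests on 13 het reads.

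The steps themselves were also compared between genotypes. The interaction of genotype with each step was called for 0 of the genes, and for 0.0% of all genes tested at each of the 3 steps. At an unadjusted p under 0.05 there was 1 gene for the step to day 2, 2 for the step to day 2.5 and 0 for the step to day 3, beside 6.31%, 5.13% and 3.82% of all genes tested. These were Notum, which differed between het and wt by -2.17 ± 0.74 in its log2 fold change to day 2 and by 2.19 ± 0.71 in that to day 2.5, and Dkk1, which differed by 1.61 ± 0.57 in that to day 2.5 (SE; adjusted p = 0.755, 0.953 and 0.953). Without het line 1 the Notum values were -4.0 and 4.24, and without het line 2 the Dkk1 value was 2.73. Both steps share the day 2 libraries, in which het had 7 Notum reads and 13 Dkk1 reads in all, whereas at day 2.5 the het and wt libraries overlapped for both genes. The DESeq2 Wald test called 0 of the interactions as well.

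One line stood apart on the chromosome of Dkk4 and Nkd1. Over 799 genes of chromosome 8, the median log2 level of wt line 1 lay 0.184 above the mean of the 6 lines and 0.221 above the mean of the other 5. No other of the 120 medians, one for each line and each autosome or X, was more than 0.06 from 0. At day 2.5 this line had 2.11 times the mean of wt lines 2 and 3 for Nkd1 and 1.12 times for Dkk4, and also 1.86 times for Axin2 and 2.94 times for Rnf43, which are on chromosome 11. On day 3 the ratio was 1.59 for Nkd1 and 1.82 for Dkk4. On day 0 and day 2 it was 0.727 and 1.19 for Nkd1, and Dkk4 had too few counts for a ratio. Without wt line 1, the log2 difference of het from wt at day 2.5 went from -0.11 ± 0.26 to 0.34 ± 0.16 for Nkd1 and from -0.11 ± 0.20 to 0.24 ± 0.12 for Axin2 (SE), none of them called, and that of Dkk4 on day 3 went from -0.78 to -0.43 (adjusted p = 0.503). The part of chromosome 8 dosage in the Nkd1 and Dkk4 values was not tested.

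**Figure D4:**
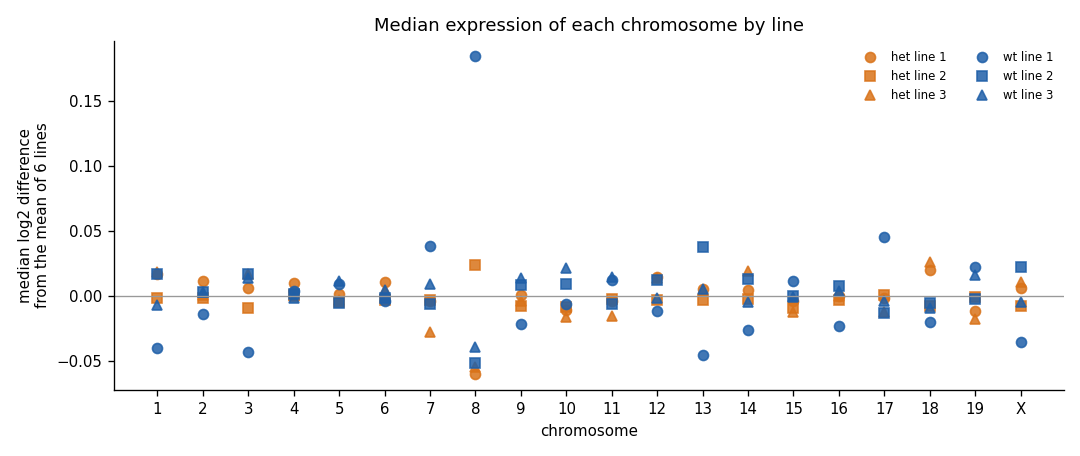
Median over genes of the log2 level of each line minus the mean of the 6 lines (y axis) for each chromosome (x axis), wt lines in blue and het lines in orange. Wt line 1 stands at 0.184 on chromosome 8, and all other medians lie within 0.06 of 0.

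The remainder of the pathway was followed with 85 further genes in 6 classes. At day 2.5, 23 of the 64 tested rose and 10 fell in wt, and 26 of the 68 tested rose and 16 fell in het, beside the 14.6% higher and 14.5% lower of all genes in wt and 21.8% and 22.9% in het given above, so that the falling shares were close to those of genes at large. Leaving out genes that passed the filter on low counts only through one day or a mix of libraries, 15 of 53 rose in wt and 17 of 51 in het. Of the other direct targets, 8 of 10 tested rose in wt and 7 of 11 in het with none falling. Sp5, T, Fgf8 and Cdx4 in wt, and these with Sp8 and Cdx1 in het, could be tested only through their day 2.5 libraries, so that they had to lie higher there, and Tbx6 in het passed through a mix of libraries. Of the others, 4 of 6 rose in wt and 1 of 4 in het. Sp5, a zinc finger factor of the tailbud, went from 0 counts in all 6 libraries of day 2 to 47.5 ± 10.8 CPM in wt and 47.4 ± 7.5 CPM in the het lines, and T from 0.454 ± 0.550 to 304 ± 135 CPM in wt and from 0.737 ± 0.640 to 352 ± 38 CPM in the het lines (SD, n = 3). Of the ligands, 6 of 11 rose in wt and 7 of 13 in het, and of those that passed the filter otherwise than in these ways, 3 of 6 and 4 of 6. Wnt3a and Wnt6, with 0 to 5 reads per genotype on day 2, were at 3.90 to 4.68 CPM on average at day 2.5.

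Of the receptors and R-spondins, 2 of 15 rose and 7 fell in wt and 4 of 16 rose and 7 fell in het. The genes that fell were the same in both genotypes, Fzd2, Fzd3, Fzd5, Fzd7, Lgr4, Lrp5 and Lrp6, and no R-spondin was called. Fzd7 fell from 177 ± 23 to 43.4 ± 4.8 CPM in wt and from 180 ± 14 to 40.1 ± 2.7 CPM in het, while Fzd10 rose from 1.64 ± 0.40 to 97.0 ± 35.6 CPM and from 2.40 ± 1.26 to 106 ± 27 CPM (SD, n = 3). Among 8 other extracellular inhibitors tested, 2 rose and 1 fell in wt and 1 rose and 2 fell in het. Kremen2, called in wt, passed the filter only through day 2.5, and of those that passed otherwise 1 of 6 rose in wt, near the share of all genes. Sfrp1 fell by 1.38 on the log2 scale in wt and by 1.35 in het, and Apcdd1, a membrane-bound Wnt inhibitor, rose by 1.29 and 1.16. In the transduction class Dvl3 and Axin1 rose in both genotypes by less than 1 on the log2 scale, and 2 of 11 rose and none fell in wt whereas 2 rose and 4 fell in het, the rising share (18.2% in both) being near that of all genes. In the nuclear class 3 of 9 rose and 1 fell in wt and 5 rose and 2 fell in het, with Pygo1 rising and the repressor Tcf7l1 falling in both.

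**Figure D5:**
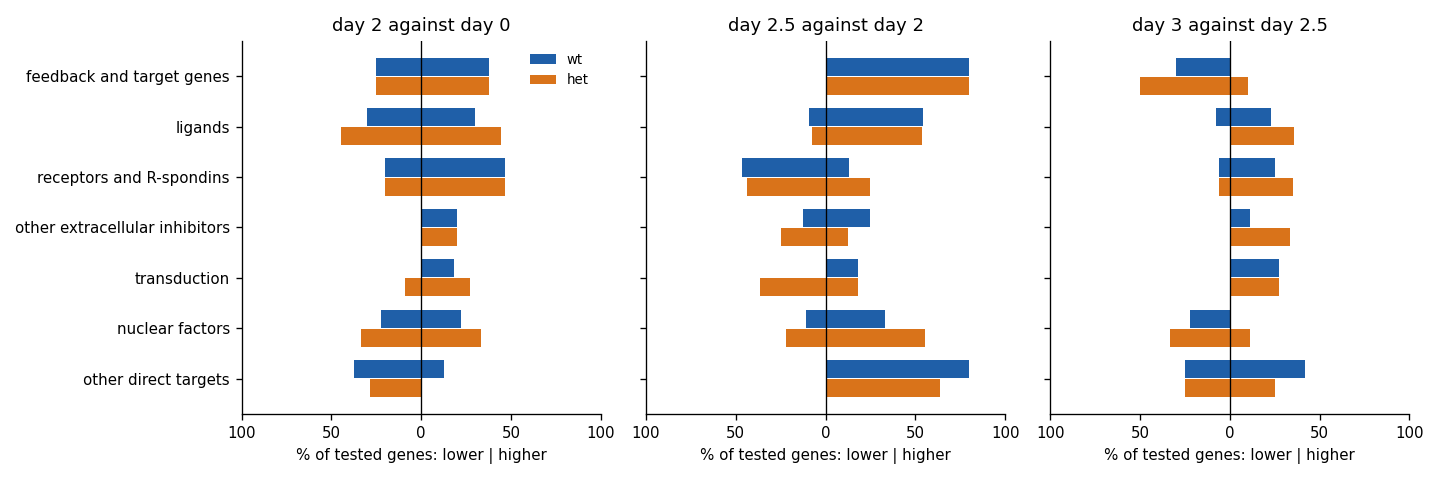
Percentage of tested genes of each class called higher (right of 0) or lower (left of 0) at each step, wt in blue and het in orange, each percentage over the genes of that class that could be tested. At day 2.5 the feedback and target genes and the other direct targets have bars to the right only, and the receptors have longer bars to the left than to the right.

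Over the 24 libraries, the log2 levels of Axin2, Dkk4 and Tnfrsf19 ran closely together, with Pearson correlations of 0.98 between each pair. Znrf3 followed Axin2 at 0.95. Among the 12457 genes whose counts averaged 50 or more, the ones most like Axin2 were Gm16764 (0.99), Dkk4 and Wnt5b, those most like Dkk4 were Gm16764, Axin2 and Cdkn1a, and those most like Tnfrsf19 were Gm16764, Wnt8a and Dkk4. Nkd1, with its earlier onset, was most like Cntnap2 (0.99), Oat and Man2a1. Rnf43 was closest to Tmem164, Add3 and Hdac11 (0.96 each), Notum to Ttc13 (0.94), Sall3 and Wnt6, and Lgr5 to Mfsd4b4, Hoxb8 and Efna4 (0.92 to 0.88). Nkd2 was closest to Sqle, Stra8 and Ahi1, Dkk1 to Capzb, Pla2g7 and Slc4a2, and Znrf3 to Axin2, Taf1 and Mlec, all between 0.91 and 0.95. The points share 6 lines and 4 days, so these values describe the common course over days and carry no test.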

How the data were processed

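The 24 libraries were grouped by genotype and day from the labels, with the line as replicate. Per the labels and methods, the authors trimmed single-end 75 bp reads with Trim Galore 0.4.4, aligned them with HISAT2 2.0.5 to GRCm38.p6 and quantified genes in SeqMonk. The deposited table holds raw counts per gene, not normalized. A second deposited table holds log2 RPKM of 34 factors, among them Axin2 and Dkk1; against log2 CPM by library totals it was offset by a constant for each gene (SD 0.014 over 24 libraries), and it was used for nothing else. A table of 39 Hox genes and 8 columns of group means were not used. Strandedness is stated only as either kit, and overlapping genes could share reads.

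Counts were scaled by TMM, filtered with filterByExpr and tested with the edgeR 4.0.16 quasi-likelihood test in R 4.3.3, in 13 comparisons of only the groups concerned, adjusted over all genes. The 10 genes were named in every comparison, 2 genes of each pathway class with the largest log2 fold change among those called in both genotypes at day 2.5, and the 3 genes most correlated with each. The genes and lists were chosen with earlier results of these data known. Alternatives were DESeq2 1.42.0 size factors and Wald test, library totals, 2 other count filters, one fit of all libraries, the line as a block and each line left out. The code was tested on simulated data. Libraries with one line number within a genotype are the same line, so the days are paired. Their deviations correlated between -0.042 and 0.178 (18 pairs, 2 over 0.1), and between -0.075 and 0.051 across genotypes, where numbers pair nothing. In the main fits, which have no term for the line, a p-value rests on the spread between lines within each group. Between days, the pairing of the same 3 lines was thus used only with the line as a block. Annotation was GENCODE vM21, in which 35544 of 35581 identifiers were found. Proteins were not analysed here. Python 3.11.15 with matplotlib 3.10.9 drew the figures.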

Additional observations from a re-analysis of the deposited data

How the results depend on the processing

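The number of genes called moved by over 1.5 times at few points. For day 2 against day 0 it went from 5 to 3 in both genotypes with a mean of at least 50 counts, where fewer of the 10 genes were tested. For wt day 3 against day 2.5 it went from 3 to 6 with no filter beyond 1 count, to 6 in one fit of all 24 libraries and to 6 with the replicate block, and ranged from 0 to 6 with one line left out, the cause of which was not tested. For het against wt on day 3 it went from 0 to 1 with no filter. The replicate block changed no other count by that much. Of the promoter searches, the longer core was found in 0 genes instead of 2.

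Of the 118 estimates for the 10 genes over the 13 comparisons, 36 changed sign under 1 or more alternatives, and none of these was called with either sign. Among the single-gene results followed one by one they were Axin2 at het day 2 against day 0 (-0.18 to 0.0311 with one het line left out), Rnf43 at wt day 2.5 against day 2 (-0.0262 with the replicate block, -0.37 to 0.47 with one wt line left out), Lgr5 at het day 3 against day 2.5 (-0.11 to 0.17 with one het line left out), and het against wt at day 2.5 for Axin2 (-0.29 to 0.24) and Nkd1 (-0.38 to 0.34) with one line left out, positive without wt line 1. Other differences between genotypes, none called, that moved by over 1.5 times with one line left out included Nkd1 on day 2 (0.21 without het line 3), Dkk4 on day 2.5 (-0.37 without het line 2, -0.08 without het line 3), and Dkk1 on day 2.5 (-0.36 without wt line 1, -0.08 without wt line 3) and on day 3 (-0.10 without het line 2). The Nkd1 difference on day 3, -0.34 in the main fit and not called, ranged from -0.65 to -0.09 over all alternatives. Scaling by library totals shifted the median of all genes by at most 0.0808 on the log2 scale. Depth limits Dkk4 before day 2.5, Lgr5 on each day, Rnf43 on day 0 and Dkk1 and Notum in het on day 2, where a few reads set the values.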
